A study of Mus musculus with 10 samples.

Results

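The cytosolic ribosomal protein genes of the mouse jejunum, the middle stretch of the small intestine, were followed in animals labelled Klf9 knockout and wild type. They were taken by symbol: Rpl or Rps with a number and at most 1 further letter (x, a or l), together with Rpsa and Rplp0 to Rplp2, while S6 kinase genes (Rps6k) and pseudogenes (-ps) were left out. Only probe sets that the platform annotation gives 1 gene symbol were used, and where a gene had several the one with the highest mean signal over the 10 arrays stood for it. This gave 45 genes of 12393 with such a probe set, of which 24 encode proteins of the large and 21 of the small subunit. A probe set is the group of short probes on an Affymetrix array that together read 1 transcript.

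The study took jejunum from male mice 30 days after birth (PND 30) and hybridised its RNA to the mouse 430A array, with 5 arrays labelled knockout (Klf9-/-) and 5 labelled wild type (WT). The design text states that each array held the RNA of a single animal, while the labelling protocol speaks of RNA pools, so that p-values measure the spread between these arrays, which may be partly technical. No source used here states which stretch of Klf9 these mice lack. The whole jejunum was extracted, so that fewer cells of a type and less RNA per cell cannot be told apart. On knockout replicate 1 a sample label names both genotypes, and it was placed by its title.

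Each cytosolic ribosome is built from a small and a large subunit, and its proteins are made in near equal amounts from genes spread over most chromosomes. Many of their messenger RNAs begin with a terminal oligopyrimidine tract, a C followed by a run of C and T, through which growth signals of the mTOR pathway set how strongly they are translated without a matching change in messenger RNA. In the intestine the dividing cells of the crypts depend on ribosome production to renew the epithelium. Klf9 is a Krüppel-like zinc finger protein that binds GC-rich and CACCC sequences.

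Start sites of 39 of the 45 genes were found in RefSeq's promoter table for GRCm38.p6. The entries not matched were Rpl7, Rpl8, Rps14, Rps20, Rps29 and Rps4l. The stretches printed here run from 20 bases before to 20 bases from the annotated start on the gene's strand, and capitals mark the longest run of C and T that touches the 5 bases on either side of the start. They show the S6 kinase substrate Rps6, the gene whose signal varied most over the arrays (Rpl27a), a gene that varied little (Rpl7a), the near-copies Rps27 and Rps27l, and the gene with the brightest probe set (Rpl41).
Rps6 (chr4:86857348-86857387, minus strand): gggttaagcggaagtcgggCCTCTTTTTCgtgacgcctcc
Rpl27a (chr7:109519175-109519214, plus strand): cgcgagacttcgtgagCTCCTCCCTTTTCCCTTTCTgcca
Rpl7a (chr2:26910787-26910826, plus strand): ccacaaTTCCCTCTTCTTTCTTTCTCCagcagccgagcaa
Rps27 (chr3:90213629-90213668, minus strand): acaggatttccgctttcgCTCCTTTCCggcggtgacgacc
Rps27l (chr9:66946066-66946105, plus strand): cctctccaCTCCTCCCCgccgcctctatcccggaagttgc
Rpl41 (chr10:128549149-128549188, minus strand): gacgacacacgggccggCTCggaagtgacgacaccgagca

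The run was 10 bases long in Rps6, 20 in Rpl27a, 21 in Rpl7a and 9 in Rps27. In Rps27l a run of 9 lay upstream of the start, and in Rpl41 the run was 3 bases. A run of at least 8 placed in this way was found in 17 of the 47 start windows of these genes, or 36.2%, against 9.38% of all 32851 windows in the table and 10.1% of the 8664 windows of genes tested here. An annotated start at C with at least 4 more C or T letters was found in 8 windows (17.0%), against 2.51% of all windows, and these were Rpl14, Rpl35, Rpl38, Rplp2, Rps10, Rps18, Rps27 and Rps6. In windows from 250 bases before to 50 bases after the start, GGGCGG on either strand was present in 48.9% of the ribosomal windows, 35.7% of all windows and 62.0% of those of tested genes. The letters CACCC on either strand were present in 48.9%, 57.5% and 63.3% of the same windows. The ribosomal share was the larger one for C and T runs at the start and the smaller one, against the tested genes, for both boxes. Windows of the same gene can overlap, and these shares are descriptions with no test.

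The labels were first set against the targeted gene. The brightest of 7 Klf9 probe sets gave scaled signals of 944, 485, 340, 526 and 451 on the arrays labelled knockout and 551, 1320, 1038, 1249 and 964 on those labelled wild type. Knockout replicate 1 was far above the other knockout arrays and just under the wild type arrays other than replicate 1. Wild type replicate 1 was far below the other wild type arrays and just above the knockout arrays other than replicate 1. The difference, knockout minus wild type throughout, was -0.86 ± 0.25 on the log2 scale (SE, n = 5 and 5), with an exact two-sided permutation p of 0.0159, where 0.00794 is the smallest that 5 against 5 arrays allow. In limma's moderated test over all probe sets the same difference had an adjusted p of 0.466, and the other probe sets of the gene did not pass either test. Directions given here are therefore those of the labels, and results are also given without the arrays titled replicate 1. Signals are brightness in arbitrary units, brought to a trimmed mean of 500 on each array, and array medians lay between 171 and 194. Hybridisation depends on the probes, so the signal of 1 probe set was not read against that of another as an amount of RNA. Enterocyte markers, which mark the small intestinal epithelium and do not tell the jejunum from its other stretches, had high signals, such as Fabp2, an intracellular fatty acid binding protein, with mean signals of 19804 in knockout and 23310 in wild type.

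Ribosomal protein genes were among the brightest on the arrays. Of the 45, 20 lay in the top 1% of mean signal over all probe sets and 34 in the top 5%. Each gene stood by its brightest 1-symbol probe set, which favours a high place. These counts therefore describe the chosen probe sets and test nothing. Rpl41, which encodes the smallest ribosomal protein, gave 25977, 19614, 17274, 18143 and 18979 on the knockout arrays and 19915, 23221, 19546, 17048 and 23854 on the wild type arrays. Rps29, a small zinc-binding protein of the small subunit, gave 17444, 15589, 14217, 15235 and 14940 in knockout and 15158, 17957, 15730, 15086 and 19285 in wild type. In both genes the groups overlapped over most of their range, with differences of -0.06 ± 0.13 and -0.10 ± 0.10 (SE). Rpl38, a large subunit protein needed in mouse embryos for translation of particular Hox messenger RNAs, ranged from 13430 to 16051 in knockout and from 11995 to 18206 in wild type. Rps28 of the small subunit ranged from 12280 to 15444 in knockout and from 11321 to 17196 in wild type. For Rpl38 and Rps28 the wild type arrays spanned the knockout arrays at both ends.

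**Figure D1:**
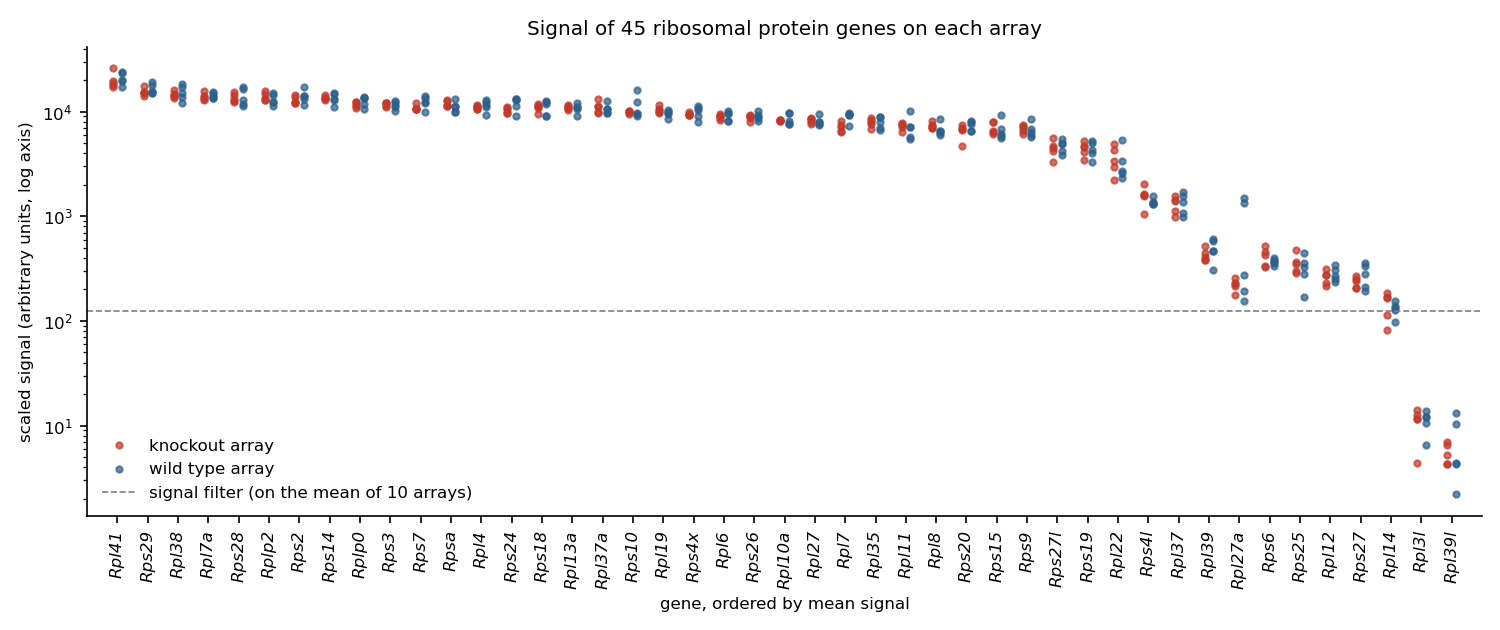
Scaled signal (arbitrary units, log axis) of the probe set of each of the 45 ribosomal protein genes on the 5 knockout arrays (red) and the 5 wild type arrays (blue), with genes ordered by mean signal and the signal filter as a dashed line. Points of both groups overlap for every gene, 33 genes lie above a mean of 4000, and Rpl3l and Rpl39l lie far under the filter.

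No ribosomal protein gene passed the test between knockout and wild type. Klf9 probe sets were always tested, and any other where its mean signal exceeded the 40th percentile (123), which 43 of the 45 passed. The paralogs Rpl3l and Rpl39l did not. Limma called 0 of 43 at an adjusted p under 0.05, and also 0.0% of all 13579 probe sets tested. At an unadjusted p under 0.05 it called 1 of the 43 (2.33%), against 7.89% of all probe sets tested. On none of these 43 probe sets were the groups free of overlap, against 1.55% of all probe sets tested. Of the 43, 20 were higher and 23 lower in knockout, and their median difference was -0.03, where 6605 of the tested probe sets were higher, 6974 lower and the median -0.01. Large subunit genes had 10 higher and 12 lower with a median of -0.03, and small subunit genes 10 higher and 11 lower with a median of -0.02.

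The measured differences were also small. They stayed within 0.2 of 0 on the log2 scale in 40 of the 43 genes (93.0%), against 76.6% of all tested probe sets. Among the 33 genes with a mean signal above 4000, 31 (93.9%) stayed within 0.2, against 78.4% of the 634 other probe sets that bright. The median absolute difference of these 33 was 0.06, against 0.11 in the other bright probe sets, and their median SD within groups was 0.16 against 0.20. Their standard errors lay between 0.09 and 0.15, and the 95% interval of the difference lay wholly between -0.5 and 0.5 in 32 of them. The lowest bound was -0.56, of Rpl7, and the highest was 0.38, of Rpl11. Differences larger than these bounds in a bright ribosomal protein gene were outside the intervals, while smaller ones could not be resolved with 5 arrays a group.

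**Figure D2:**
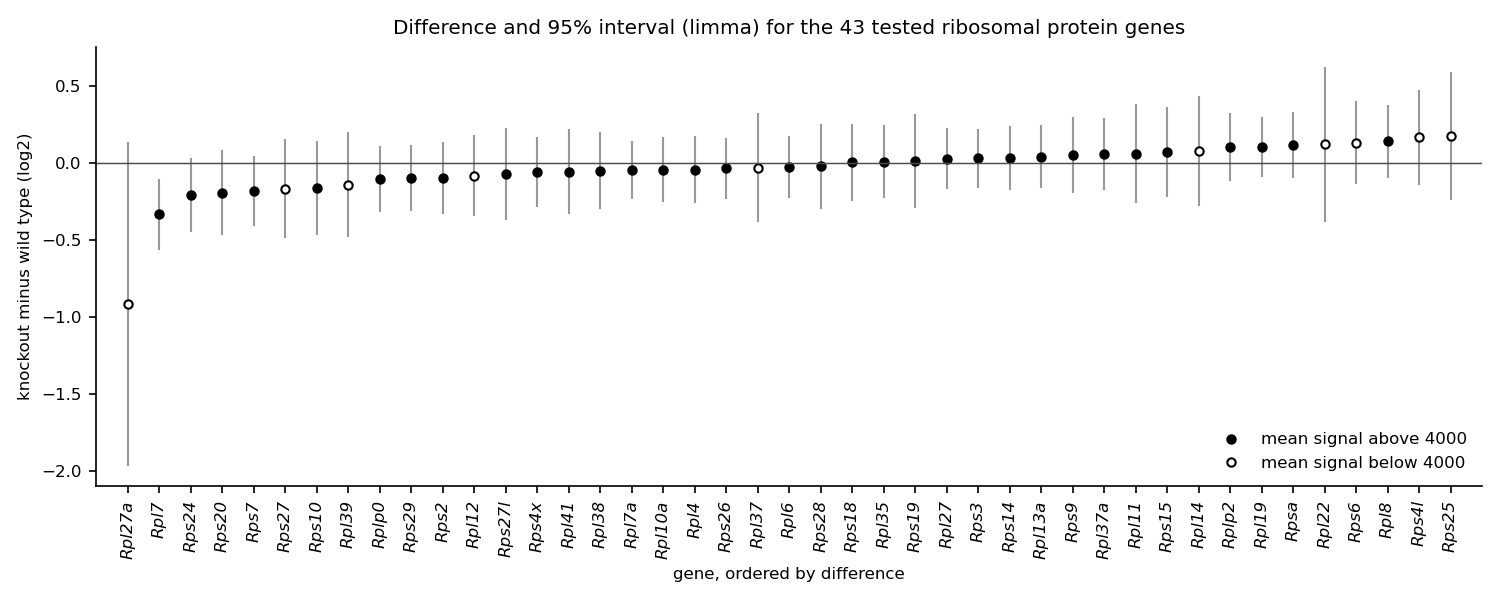
Difference between knockout and wild type (log2, point) with its 95% interval from limma (line) for the 43 tested ribosomal protein genes, ordered by difference, with filled points for a mean signal above 4000 and open points below it. The interval of Rpl7 alone lies wholly on 1 side of 0, and Rpl27a stands apart with -0.92 and the widest interval.

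Among the genes lower in knockout, Rpl7 of the large subunit had the lowest p. Its probe set gave 6339, 7071, 7543, 6557 and 8134 on the knockout arrays and 9289, 9318, 9615, 7308 and 9500 on the wild type arrays. The 4 wild type arrays from 9289 to 9615 exceeded every knockout array, and wild type replicate 4 lay among them. The difference was -0.33 ± 0.11 (SE), with an unadjusted p of 0.0078 and an adjusted p of 0.478 in limma. Leaving out each array in turn gave -0.41 to -0.29, and leaving out both arrays titled replicate 1 gave -0.28. With the fluidics module as a block the difference was -0.02. Only module 4 held both groups, so that value rests on 1 knockout and 2 wild type arrays, wild type replicate 4 among them. The other probe sets of Rpl7 did not share this difference, with 0.01 ± 0.14 and -0.02 ± 0.24, and the mean over its probe sets gave -0.11. The difference of Rpl7 therefore rested on 1 of its 3 probe sets.

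Small subunit genes made up the rest of the bright genes with the lowest p in this direction. Rps24, mutated in some human families with Diamond-Blackfan anaemia, gave 9611, 11030, 10415, 9683 and 10762 in knockout and 12993, 13351, 11382, 9150 and 13110 in wild type. Every knockout array lay below the wild type mean, while wild type replicate 4 was the lowest of all 10 arrays, and the difference was -0.21 ± 0.11 (adjusted p = 0.678). Rps7, another gene of that disease, gave 10498, 10582, 10726, 10708 and 12011 in knockout and 12226, 13658, 12389, 9916 and 14134 in wild type. Wild type replicate 4 again lay below all knockout arrays, and the difference was -0.18 ± 0.11 (adjusted p = 0.688). Rps20, whose human counterpart is mutated in a hereditary colorectal cancer, gave 4681, 6882, 6960, 6635 and 7406 in knockout and 6607, 7969, 7703, 6584 and 8074 in wild type. Knockout replicate 1 stood far under the other arrays of its group, and the difference was -0.19 ± 0.13 (adjusted p = 0.734), or -0.08 without that array.

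Rpl27a, a large subunit gene whose mutation gives a skin and cerebellar phenotype in the mouse, had the widest spread of all. Its probe set gave 232, 218, 177, 258 and 225 on the knockout arrays and 275, 1490, 155, 195 and 1331 on the wild type arrays. Only wild type replicates 2 and 5 were high, and the other wild type arrays lay within or beside the knockout range. The difference of -0.92 ± 0.49 had an adjusted p of 0.676, and its 95% interval ran from -1.97 to 0.14. Without wild type replicate 2 it was -0.52, and without wild type replicate 5 it was -0.56. Another probe set that lists Rpl27a with further symbols gave 10378, 10484, 10079, 9572 and 10513 in knockout and 10989, 11264, 9785, 8950 and 10916 in wild type, a difference of -0.02 ± 0.09. On that probe set wild type replicates 2 and 5 were not set apart from the other arrays.

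Genes higher in knockout showed smaller differences. Rpl8 of the large subunit gave 7332, 6991, 7489, 6983 and 8233 in knockout and 6489, 8573, 6588, 5951 and 6208 in wild type. All knockout arrays exceeded 4 of the wild type arrays, but wild type replicate 2 was the highest of all 10, and the difference was 0.14 ± 0.11 (adjusted p = 0.785). Rpsa, a small subunit protein also known as the laminin receptor precursor, gave 12939, 12779, 11697, 11364 and 11377 in knockout and 9978, 11348, 13148, 9991 and 11193 in wild type. Here wild type replicate 3 was the highest of all arrays and the difference was 0.12 ± 0.10 (adjusted p = 0.800). Rpl19, often used as a reference gene, ranged from 9736 to 11562 in knockout and from 8553 to 10485 in wild type, with a difference of 0.11 ± 0.09 (adjusted p = 0.804).

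Among the paralogous pairs no gene passed the test. Rps4x, the X-linked gene of its pair, ranged from 9205 to 9842 in knockout and from 7927 to 11356 in wild type, with a difference of -0.06 ± 0.10. Rps4l gave 2039, 1620, 1583, 1052 and 1572 in knockout and 1364, 1305, 1304, 1554 and 1329 in wild type, a difference of 0.17 ± 0.14 (adjusted p = 0.805) with knockout arrays at both ends. Without knockout replicate 1 the difference of Rps4l was 0.07, and without knockout replicate 4 it was 0.30. Rps27l, whose human counterpart is a target of p53, gave 3336, 4721, 4494, 4180 and 5661 in knockout and 3844, 5425, 4963, 4165 and 4988 in wild type, a difference of -0.07 ± 0.14. The groups of Rps27l overlapped over nearly their whole range. For Rps27 itself the 1-symbol probe set ranged from 206 to 270 in knockout and from 193 to 357 in wild type, with a difference of -0.17 ± 0.15. Rpl3l, known from heart and skeletal muscle, ranged from 4.4 to 14 in knockout and from 6.6 to 13.9 in wild type. Rpl39l, known from the testis, ranged from 4.3 to 7.0 in knockout and from 2.2 to 13.2 in wild type. Both of the latter stayed under the filter on every array, and their differences were tested only in the alternative with no filter.

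The genes of proteins with known roles beyond peptide synthesis, and of the ribosomal stalk, had differences within 0.2 of 0. Rplp0, the base of the stalk that recruits elongation factors, gave 10930, 11303, 12489, 11517 and 12505 in knockout and 13657, 13429, 11780, 10639 and 13893 in wild type. Every knockout array lay under the wild type mean of 12679, yet wild type replicate 4 was lower than all of them, and the difference was -0.10 ± 0.10 (adjusted p = 0.828). Rpl11, which binds the p53 inhibitor Mdm2 when ribosome assembly is disturbed, ranged from 6377 to 7756 in knockout and from 5504 to 10252 in wild type, with a difference of 0.06 ± 0.15. Rpl13a, which in human myeloid cells silences inflammatory messenger RNAs, ranged from 10428 to 11652 in knockout and from 9065 to 12019 in wild type, with a difference of 0.04 ± 0.09. The knockout range lay within the wild type range for Rpl11 and for Rpl13a.

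The steadiest and the most variable genes were told apart by their SD of log2 values over all 10 arrays. Among tested genes it was lowest in Rps3, which lines the entry of the messenger RNA channel, at 0.09, and in Rpl7a and Rps26, at 0.10 each. Rps3 ranged from 11189 to 12236 in knockout and from 10221 to 12653 in wild type, and its highest array was 1.24 times its lowest. Rpl7a ranged from 12845 to 15608 in knockout and from 13508 to 15513 in wild type, and Rps26 from 8011 to 9207 and from 8080 to 10266. After Rpl27a, with an SD of 1.06, the largest values were those of Rpl22 (0.43), Rps25 (0.35), Rpl37 (0.28) and Rpl39 (0.27). Except for Rpl22, with a mean signal of 3407, these were read on dim probe sets. Mean signals were 455 for Rpl27a, 336 for Rps25, 1324 for Rpl37 and 457 for Rpl39. The steady genes had 11691 (Rps3), 14185 (Rpl7a) and 8925 (Rps26). The part of brightness in these SDs was not tested. Rpl22, a large subunit protein needed for the development of αβ T cells in the mouse, gave 2221, 2939, 4270, 3369 and 4879 in knockout and 2609, 2738, 5367, 3367 and 2314 in wild type. Its high and low arrays were found in both groups, and the difference was 0.12 ± 0.23 (adjusted p = 0.932).

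Dim values came in part from genes that further probe sets, shared with other symbols, also read. Of the 11 genes with a mean signal under 1500, 8 are also listed by probe sets that carry several symbols: Rpl37, Rpl39, Rpl27a, Rps6, Rps25, Rpl12, Rps27 and Rpl14. For Rps6, the S6 kinase substrate, the 1-symbol probe set gave 459, 424, 339, 521 and 325 in knockout and 379, 357, 366, 402 and 337 in wild type. The brightest probe set that lists Rps6 with other symbols gave 18720, 15194, 14548, 14992 and 14286 in knockout and 15177, 18643, 15669, 13896 and 16588 in wild type. Neither probe set passed the test, at 0.13 ± 0.13 and -0.04 ± 0.11. Rpl12, at the base of the stalk, ranged from 217 to 313 in knockout and from 237 to 345 in wild type on its 1-symbol probe set, a difference of -0.08 ± 0.12, and gave 0.11 ± 0.14 on the brightest probe set of several symbols. Rpl14 ranged from 81.2 to 187 and from 97.0 to 156 on the first, a difference of 0.08 ± 0.17, and gave 0.15 ± 0.10 on the second. Rpl39, which lines the exit tunnel for the new protein, gave -0.14 ± 0.16 and -0.09 ± 0.14, and Rpl37 -0.03 ± 0.17 and -0.13 ± 0.12. For Rpl12 the sign differed between the probe sets, and no value for Rpl12, Rpl14, Rpl37 or Rpl39 passed the test.

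**Figure D3:**
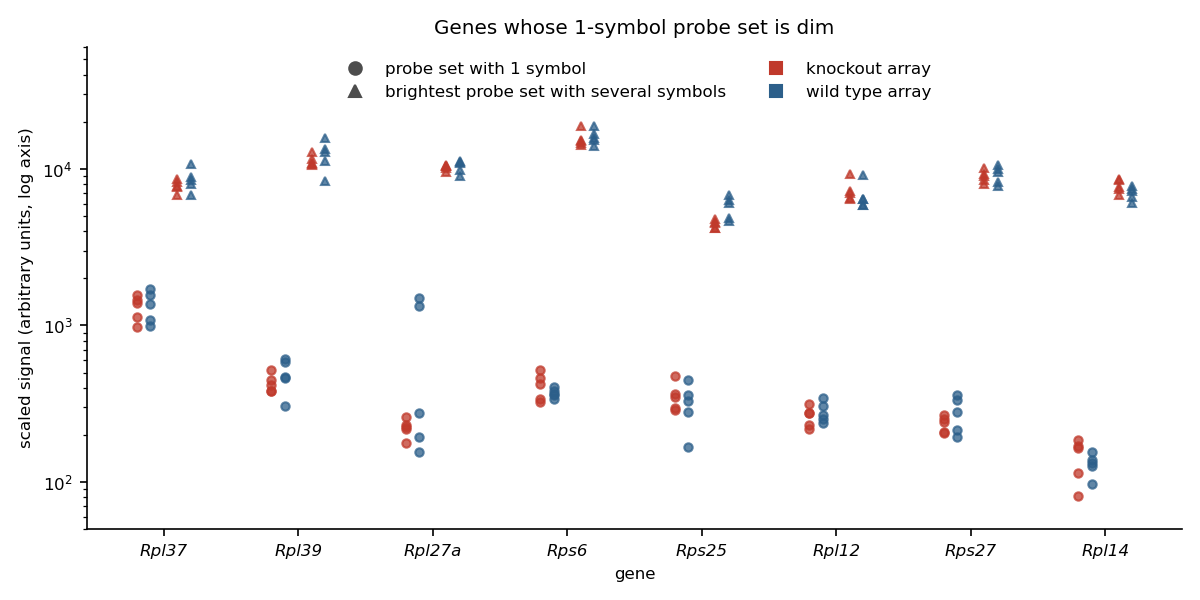
Scaled signal (arbitrary units, log axis) of the 8 genes with a 1-symbol probe set under 1500 (circles) and of the brightest probe set that lists each with other symbols (triangles), for knockout (red) and wild type (blue) arrays. The 2 high wild type values of Rpl27a occur on the 1-symbol probe set and not on the other.

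Widening the view to all ribosomal probe sets added 102 with several symbols to the 96 with 1, or 198 in all, of which 172 were tested. Limma called 0 of the 172, and at an unadjusted p under 0.05 it gave 4 higher and 2 lower (3.49%, against 7.89% of all tested probe sets). The 27 ribosomal genes found only in probe sets of several symbols, Rpl3 and Rpl5 among them, had mean signals from 4668 to 18524, 11 higher and 16 lower in knockout, and a median difference of -0.03. Rpl3, which shapes the peptidyl transferase centre, gave -0.01 ± 0.09, and Rpl5, which joins Rpl11 and 5S ribosomal RNA in the complex that binds Mdm2, gave -0.17 ± 0.09 (adjusted p = 0.650). Of the 18 genes with several tested 1-symbol probe sets, 10 had differences of both signs, 3 were higher and 5 lower on all of them. The median span between the probe sets of 1 gene was 0.14, so that the choice of probe set moved a value by more than most differences between the groups.

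The 3 genes that stood out in that wider set were chosen after their values were seen. Of its 172 tested probe sets, 2 had groups without overlap (1.16%, against 1.55% of all tested probe sets). Rpl36, a large subunit gene read by 3 probe sets of several symbols, was higher in knockout on each. Its brightest gave 7720, 8016, 7974, 6698 and 7844 in knockout and 6676, 6402, 6122, 5740 and 5326 in wild type, without overlap. The differences were 0.34 ± 0.10, 0.37 ± 0.12 and 0.36 ± 0.11, with unadjusted p of 0.0035, 0.0083 and 0.0049 and adjusted p of 0.466, 0.478 and 0.466 in limma. Leaving out each array in turn kept the brightest between 0.29 and 0.38, and the lowest adjusted p over all alternatives was 0.303. These probe sets read the same RNA and are not independent. Rps10, a small subunit protein at the entry of the messenger RNA channel, had 1 dim probe set of 5 tested without overlap, at 775, 1106, 1426, 756 and 1384 in knockout and 485, 720, 684, 697 and 636 in wild type. That probe set gave 0.68 ± 0.18 (adjusted p = 0.441), while the other 4 lay between -0.16 and 0.12. Rps25, used by some viral internal ribosome entry sites, gave 0.17 ± 0.19 on its dim 1-symbol probe set and -0.35 ± 0.12 (adjusted p = 0.495) on a probe set of several symbols at 4184 to 4795 in knockout and 4618 to 6829 in wild type.

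**Figure D4:**
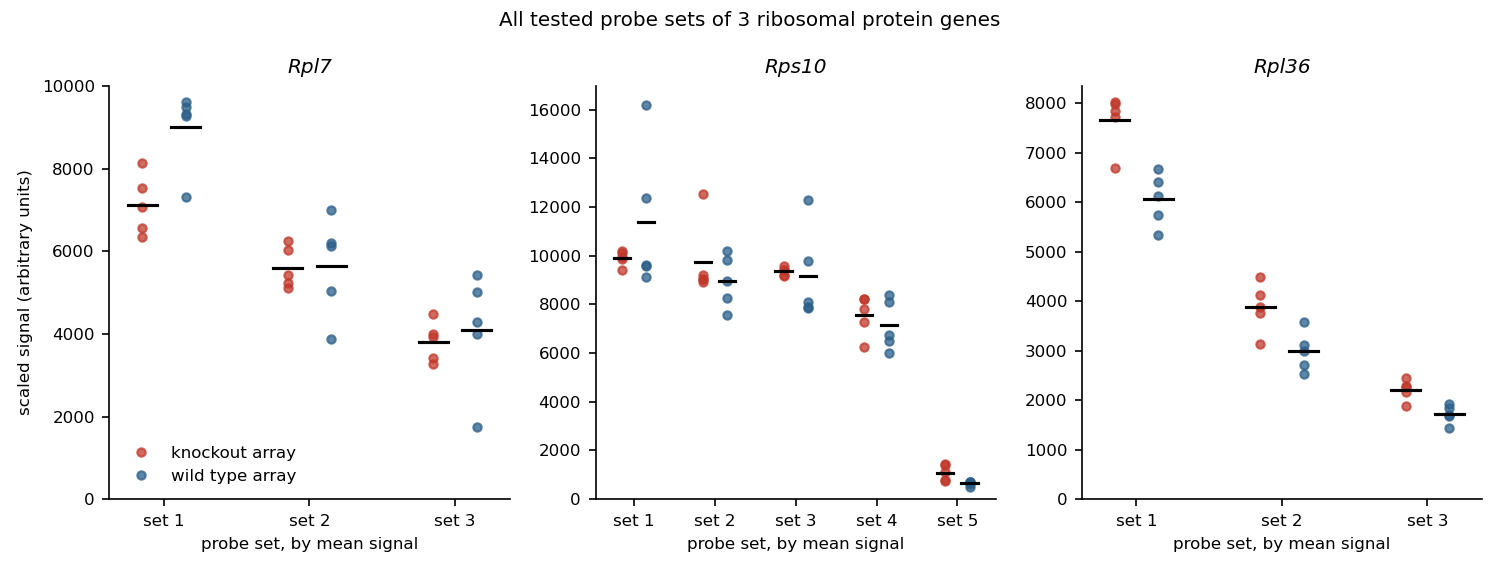
Scaled signal (arbitrary units, linear axes from 0) of every tested probe set of Rpl7, Rps10 and Rpl36 on knockout (red) and wild type (blue) arrays, with bars for group means and probe sets ordered by mean signal. On 1 of 3 probe sets of Rpl7 all wild type arrays but replicate 4 lie above the knockout arrays, the groups do not overlap on the dimmest of 5 of Rps10, and knockout is higher on average on all 3 of Rpl36, each by 0.34 to 0.37 on the log2 scale.

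The ribosomal protein genes deviated together on single arrays, by more than their median difference between the groups. Each gene's log2 signal was set against its own mean over the 10 arrays, and the median over the 43 tested genes was taken for each array. It was 0.04, 0.00, -0.01, -0.08 and 0.04 on the knockout arrays and -0.11, 0.20, 0.03, -0.15 and 0.08 on the wild type arrays. Wild type replicate 2 was the highest, with 34 of 43 genes above their own mean, and wild type replicate 4 the lowest of its group, with 9 of 43. Knockout replicate 4 had 7 of 43 above. The group means were 0.00 in knockout and 0.01 in wild type, with SDs of 0.05 and 0.15. These genes took 2.17 to 2.36% of the summed signal in knockout and 2.08 to 2.53% in wild type.

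Other bright probe sets also deviated from array to array. The 634 that were not ribosomal had median deviations of 0.12 on wild type replicate 2, -0.08 on wild type replicate 4 and -0.18 on knockout replicate 3, where the bright ribosomal genes stood at 0.21, -0.19 and -0.02. After quantile normalization the ribosomal median was 0.04 on wild type replicate 2 and -0.04 on wild type replicate 4, and after cyclic loess 0.09 and -0.06. The extremes then lay on other arrays: knockout replicate 3 was highest, at 0.15 and 0.12, and wild type replicate 1 lowest, at -0.14 and -0.12. With quantile normalization the median difference between the groups became 0.05, with 30 of 43 genes higher, so the direction over these genes depended on the scaling. RNA integrity, read as the 3′ to 5′ signal ratio of actin, ranged from 1.07 to 1.25 in knockout and from 1.07 to 1.19 in wild type. Its part in these deviations was not tested.

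**Figure D5:**
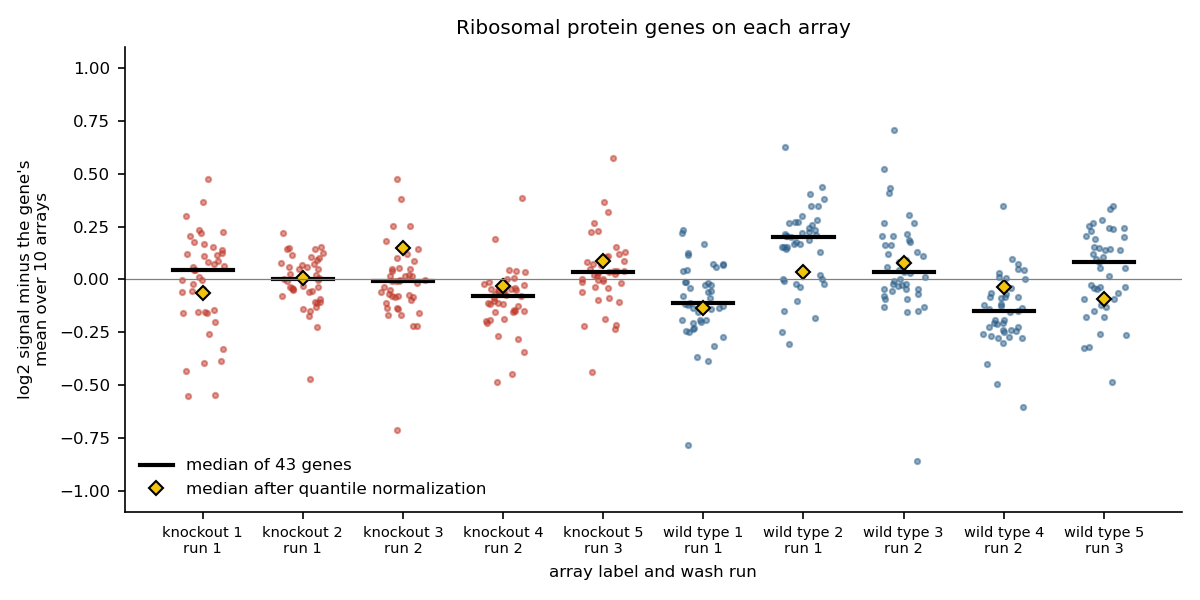
Deviation of each of the 43 tested ribosomal protein genes from its own mean over 10 arrays (log2, points) on each array, with the median as a bar and the median after quantile normalization as a diamond. The medians run from -0.15 on wild type replicate 4 to 0.20 on wild type replicate 2, and 2 points of Rpl27a on wild type replicates 2 and 5 lie above the axis.

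The arrays were washed in 3 runs, told apart by gaps in the recorded times. Runs 1 and 2 held 2 arrays of each group and run 3 held 1 of each, so run 3 values come from a single pair of arrays. Within the runs the median difference over the 43 genes was -0.05, -0.02 and -0.03, with 14, 19 and 19 of them higher in knockout. Rpl7 was lower in knockout in each run, by -0.47, -0.25 and -0.22, and Rpl27a gave -1.36, 0.24 and -2.33. Without both arrays titled replicate 1, whose Klf9 signals went against their labels, the median was -0.05 with 13 of 43 higher, and limma again called none of the 43, with 1 at an unadjusted p under 0.05.

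Genes that make or govern ribosomes were looked at beside the structural ones, and limma called none in the lists that follow. Ribosomal proteins outside the symbol rule had 2 of 4 higher and a median of 0.04. Rpl22l1, the paralog of Rpl22, gave -0.26 ± 0.15 (adjusted p = 0.688), Rpl7l1 gave 0.13 ± 0.14 and Rsl24d1, a factor of large subunit assembly, gave 0.08 ± 0.12. A list of translation factors and of genes taken to have oligopyrimidine tracts had 15 higher and 22 lower of 37, with a median of -0.05. Their tracts were not looked at gene by gene. Eif2s2, the beta subunit of the factor that brings the initiator transfer RNA, gave -0.40 ± 0.13 (adjusted p = 0.486), and the eIF3 subunits Eif3b and Eif3d gave 0.29 ± 0.13 and 0.22 ± 0.10. Ribosome biogenesis genes had 22 higher and 15 lower of 37, with a median of 0.02. Fibrillarin (Fbl), the methyltransferase of ribosomal RNA, gave 0.32 ± 0.14, its partner Nop56 gave -0.21 ± 0.10, and the export adaptor Nmd3 gave 0.32 ± 0.14. Genes of mTOR control and ribosome stress had 6 higher and 7 lower of 13, with a median of 0.00. Cdkn1a, the p53 target that halts the cell cycle, gave 0.27 ± 0.11 (adjusted p = 0.558), Rps6ka3 gave -0.25 ± 0.14 and Tsc1, a brake on mTOR, gave -0.18 ± 0.10.

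Mitochondrial ribosomal proteins, encoded in the nucleus for the separate ribosome of the mitochondrion, were mostly higher in knockout. Of 74 tested, 56 were higher and 18 lower in knockout, with a median of 0.11, where the cytosolic genes had 20 of 43 higher and a median of -0.03. None was called, 9 were higher at an unadjusted p under 0.05 (12.2%, against 3.65% of all tested probe sets) and 1 was lower (4.24% of all tested were). Mrpl38 gave 0.38 ± 0.10 (adjusted p = 0.441), Mrpl51 gave 0.36 ± 0.12 (adjusted p = 0.486) and Mrpl4 gave 0.24 ± 0.09 (adjusted p = 0.542). The count of 56 stood after quantile and loess normalization too, with medians of 0.10 and 0.09, and was 58 without both arrays titled replicate 1. The groups overlapped on the level of arrays, taken as the median deviation of these genes from their own means. It was -0.01, 0.03, 0.13, -0.03 and 0.16 on the knockout arrays. On the wild type arrays it was -0.04, -0.04, 0.05, -0.09 and -0.16. The difference between the mitochondrial and the cytosolic genes was not tested.

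Markers of several cell types were set beside these values. Enterocyte markers were lower in knockout in 7 of 9 (median -0.14), or 6 of 9 (median -0.06) after quantile normalization. Their summed signal ran from 102013 to 153205 in knockout and from 104186 to 174474 in wild type. Smooth muscle markers were higher in 9 of 9 (median 0.40), or 6 of 9 (median 0.20) without both arrays titled replicate 1, with sums from 29805 to 46394 in knockout and from 22190 to 37439 in wild type. Fat cell markers were higher in 5 of 5 (median 0.62), with sums from 2223 to 4611 and from 849 to 4483. B and plasma cell markers were lower in 8 of 8 (median -0.31), with sums from 2232 to 10648 and from 6671 to 13138, and T cell markers were lower in 8 of 8 (median -0.28), or 7 of 8 (median -0.16) without both arrays titled replicate 1, with sums from 2328 to 6040 and from 3826 to 6144. Proliferating crypt cell markers were higher in 8 of 10 (median 0.06), with sums from 9240 to 16374 and from 9825 to 14142. Leaving out single arrays moved that median from -0.07 to 0.14, so its sign depended on single arrays. Paneth cell markers were lower in 3 of 3 (median -0.17), goblet cell markers in 4 of 4 (median -0.12, or -0.29 without both arrays titled replicate 1) and enteroendocrine markers in 2 of 6 (median 0.01). In each of these lists the sums of the groups overlapped and no tested marker had a group mean at 0. Limma called none of these markers, as it called 0 of all 13579 probe sets tested. At an unadjusted p under 0.05 it gave 4 of 9 smooth muscle and 3 of 5 fat cell markers as higher. It gave 2 of 8 B and plasma cell markers as lower, and no marker of the other lists in either direction. Of all tested probe sets 3.65% were higher and 4.24% lower at that threshold. The part of these markers in the ribosomal values was not tested.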

How the data were processed

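Jejunal RNA was read on 10 arrays, grouped by their titles. The deposited values are intensity signals in a single table, made by the authors with Affymetrix MAS 5.0 per the series' design text; the deposited intensity columns already had 2% trimmed means of 500.2. Here each array was scaled to a trimmed mean of 500, 64 control probe sets were left out, and log2(signal + 50) was taken, which understates differences of dim probe sets. The 13579 of 22690 probe sets with a mean above the 40th percentile, or that read Klf9, were tested with limma 3.58.1 in R 4.3.3 (2 groups, eBayes with trend, two-sided, Benjamini-Hochberg over all of them, threshold 0.05). The fit was also run on simulated arrays with the means and within-group SDs of the real ones. It recovered 83 of 100 planted 2-fold changes and 47 of 100 planted 1.5-fold changes, with 11 false calls. Changes of 1.5-fold or less could therefore often be missed. Klf9 also had an exact permutation test in Python 3.11.15. The number of arrays limits the precision. MAS signals of probe sets marked _x_at or _a_at may include near-identical transcripts, and 29 of the 45 genes are read by a probe set marked _x_at, _a_at or _s_at. Genes were named from the platform annotation: 20380 probe sets have 1 symbol, 691 several and 1555 none, and those with several were used only where stated. Promoter sequences are RefSeq's.

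Named genes were the 5 of lowest p in each direction, the 5 highest and 5 lowest in mean signal and in SD over arrays, paralogous pairs, genes with known further roles, and up to 3 of lowest p from each other list. The members and lists were chosen with earlier results of these data known. Alternatives were other offsets, scalings, filters, eBayes settings, array weights and probe set choices, blocks for replicate number, wash run and fluidics module, and leaving out arrays. Protein sequences were not used here.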

Additional observations from a re-analysis of the deposited data

Results flagged for a closer look

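Dixon's limit was applied to the 43 tested genes, the brightest Klf9 probe set and the ribosomal median, each in both groups. In 6 of these 90 groups of 5 arrays, 1 array stood apart from the other 4 by more than this limit. Chance alone marks about 1 in 20 groups. In knockout, Rps7 was high on replicate 5, at 12011 where the other arrays lay between 10498 and 10726, and Rps20 was low on replicate 1, at 4681 against 6635 to 7406. In wild type, replicate 2 was high for Rpl27, at 9535 against 7517 to 8027, and for Rpl8, at 8573 against 5951 to 6588. Wild type replicate 4 was low for Rpl7, at 7308 against 9289 to 9615, and high for Rps4l, at 1554 against 1304 to 1364. Wild type replicates 2 and 4 also had the highest and the lowest median over the ribosomal protein genes with trimmed mean scaling, though not after quantile or cyclic loess normalization.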

How the results depend on the processing

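No ribosomal protein gene tested was called under any of 28 alternatives. These tested 43 genes, or 45 with no filter and 40 with the stricter filter. Unmarked _at probe sets gave 16 genes, and adding probe sets of several symbols gave 70. At an unadjusted p under 0.05 in limma at most 5 were called, without wild type replicate 4 (1 with all arrays). The median difference of -0.03 ranged from -0.06 to 0.05 over 31 alternatives and lay above 0 in 7 of them: 0.05 with quantile normalization, 0.01 with cyclic loess, 0.03 with the fluidics module as a block, 0.05 over the 16 genes on unmarked _at probe sets, and 0.01, 0.03 and 0.00 without knockout replicate 4, wild type replicate 2 or wild type replicate 3. Leaving out single arrays gave -0.06 to 0.03. With the replicate block the median was -0.03, 0 genes were called and 2 had an unadjusted p under 0.05. The numbers were not taken to pair the arrays, because not every same-numbered pair correlated above 0.1: the correlations ran from -0.12 to 0.28, with 3 of 5 above it. As a hint towards pairing, 6 of 10 arrays matched their own number best, and arrays of the same number shared a wash run. For the 10 genes of lowest p, the difference changed sign in 7 cases: with the module block Rps6 (-0.19), Rps7 (0.045) and Rps20 (0.032), and within a wash run Rpl8 (-0.059), Rps4l (-0.14), Rps6 (-0.045) and Rpl27a (0.24). Over all 43 genes, 31 had another sign in at least 1 wash run, Rpl22 (0.12) with -0.064 and -0.16 in runs 1 and 2 and Rpl11 (0.06) with -0.35 in run 2 among them. A run held at most 2 arrays of each group, and run 3 held 1 of each. The cause was not tested. Module 4 alone held both groups, so differences with the module block rest on its 1 knockout and 2 wild type arrays. The median of wild type replicate 2 was 0.036 after quantile normalization, against 0.20.

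Klf9 differed by -0.66, -0.62, 0.063, -0.25, -0.15 and -0.29 on its other probe sets, and by -1.06 to -0.72 on the brightest when single arrays were left out. The probe sets with 0.063, -0.25, -0.15 and -0.29 were dim, with mean signals of 80.1, 66.3, 40.3 and 21.8 under the filter of 123. Over all probe sets 0 were called, against 9 without both arrays titled replicate 1, 5 without knockout replicate 1, 3 without knockout replicate 5, 1 without wild type replicate 1, 3 with array weights and 1 with probe sets averaged by gene. At an unadjusted p under 0.05 there were 1072, 471 with the module block and 656 with means over 8290 genes, where fewer features are tested, 1624 with no filter and 765 with a filter at the 60th percentile.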

Other observations

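The high signals of the Rpl27a probe set on wild type replicates 2 and 5 recurred in few other places, which were looked for after these values were seen. Of the 13579 tested probe sets, 5 were over 3 times brighter on exactly these 2 arrays than on each of the others, and none of the other 44 pairs of arrays had any such probe set. A probe set of Actb, the cytoplasmic beta-actin, gave 4493 and 5108 on the pair and 406 to 970 elsewhere. The 3′ control probe set of the same gene was far brighter and differed less, with 26850 and 30862 on the pair and 17927 to 25008 elsewhere. A probe set of Prr15, a proline-rich protein, gave 3282 and 4270 on the pair and 502 to 853 elsewhere. The remaining 2 probe sets carry no symbol in the annotation used here. Wild type replicates 2 and 5 came from different wash runs.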
